A study of Mus musculus with 16 samples.

Results

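The tachykinin genes described here are Tac1 and Tac2, which encode peptide precursors, and Tacr1 and Tacr3, which encode receptors. These 4 genes were chosen by name out of 54532 genes in the deposited tables, with earlier results of the same libraries known. All 4 were found by their Ensembl identifiers, and all 4 passed the filter on low counts, which kept 26257 genes. RNA was sequenced from parvalbumin (PV) interneurons sorted from the cortex of adult mice, aged 113.1 ± 11.6 days over the whole study. The mice were PV-Cre;lsl-eGFP-GluA2 (7 libraries) or, as controls, PV-Cre;lsl-eGFP (9 libraries). Both groups carry PV-Cre, which makes Cre recombinase in cells that use the parvalbumin gene, and an lsl allele that stays silent until Cre acts. The allele of the first group yields eGFP fused to GluA2, the AMPA receptor subunit that keeps calcium out of the channel. That of the second yields eGFP alone. Per the labels, the mice were made to ask what the loss of calcium-permeable AMPA receptors does to PV cells. Each library was a bulk pool of fixed, sorted cells with green fluorescence and a stained nucleus. In such pools, fewer cells of a type and less RNA per cell cannot be told apart. The labels number the libraries as biological replicates and give no sex, litter or batch for any of them.

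Tachykinins are short neuropeptides that are cut from larger precursors, amidated at the carboxyl end and released from dense-core vesicles. Tac1 encodes substance P and neurokinin A, and Tac2 encodes neurokinin B. Tacr1 encodes the NK1 receptor, which prefers substance P, and Tacr3 encodes the NK3 receptor, which prefers neurokinin B. Both receptors couple mainly to Gq proteins, raise intracellular calcium and depolarise neurons. In the mouse cortex Tac1 is a known transcript of many PV interneurons, whereas Tacr1 is known for its strong expression in long-range somatostatin neurons that also make Nos1 and Chodl.

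Transcript sequences of GENCODE M21 on GRCm38 show what the 2 precursor genes share, and are given here because the peptides, not the precursors, are what the receptors bind. Each line holds the spliced coding bases around 1 peptide end, on the plus strand, with 6 codons before and 3 codons after the signature. Capitals mark the 15 bases that code the tachykinin signature, which runs phenylalanine, a variable residue, glycine, leucine, methionine. The codons after it, glycine, lysine and arginine, give the amide and the cleavage site.
substance P (Tac1-205, exon 3, chr6:7556732-7556773): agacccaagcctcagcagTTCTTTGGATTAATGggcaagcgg
neurokinin A (Tac1-205, exons 5 and 6, chr6:7557743-7559139): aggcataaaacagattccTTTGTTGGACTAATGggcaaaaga
neurokinin B (Tac2-201, exons 4 and 5, chr10:127728476-127729154): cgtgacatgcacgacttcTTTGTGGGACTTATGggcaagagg
Of the 15 signature bases, neurokinin A and neurokinin B share 13, substance P and neurokinin A share 12, and substance P and neurokinin B share 10. The neurokinin A signature of Tac1 thus matches that of Tac2 in more bases than it matches the other signature of its own gene. Tac1-205 has 130 codons and both signatures, while Tac1-201 has 112 codons, lacks an exon and holds only 1 signature. The gene-level values below do not separate these transcripts, so nothing is said of the balance of substance P and neurokinin A.

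On GRCm38, Tac1 (ENSMUSG00000061762) lies at chr6:7554879-7565834 and Tac2 (ENSMUSG00000025400) at chr10:127724478-127731768. Tacr1 (ENSMUSG00000030043) spans chr6:82402334-82560104, and Tacr3 (ENSMUSG00000028172) spans chr3:134829007-134934579. All 4 are protein-coding genes on the plus strand, and none overlaps another annotated gene.

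Libraries held 7454165 to 15462544 counts. They differed in reads from olfactory and vomeronasal receptor genes, called the background below, which serve sensory neurons of the nose and ranged from 82.4 to 4142 CPM (counts scaled to library size). The background was low (under 500 CPM) in 5 libraries, 2 of them eGFP-GluA2 and 3 eGFP. It was in the middle (500 to 1500 CPM) in 5, of which 3 were eGFP-GluA2 and 2 eGFP, and high (over 1500 CPM) in 6, of which 2 were eGFP-GluA2 and 4 eGFP. The PV identity of the cells was visible in both groups. Pvalb averaged 271 ± 102 CPM in eGFP-GluA2 libraries and 272 ± 137 CPM in eGFP libraries (SD, n = 7 and 9), and Gad1, which makes GABA, averaged 2373 CPM in eGFP-GluA2 and 2443 CPM in eGFP. Kcnc1, a channel of fast spiking, averaged 1573 CPM in eGFP-GluA2 and 1319 CPM in eGFP. All 12 PV interneuron markers passed the filter, and their summed level spanned 3704 to 9941 CPM in eGFP-GluA2 and 3294 to 10043 CPM in eGFP. Gria2, the gene of GluA2, checked the labels: in the authors' deposited table it had 8389 to 14057 normalized counts in eGFP-GluA2 libraries, against 4500 to 6724 in eGFP libraries. Those ranges did not overlap.

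Tac1 was by far the most abundant of the 4 mRNAs. On the TPM scale, which corrects for transcript length, its level in eGFP-GluA2 libraries had a lowest value of 46.7, a median of 62.5 and a highest value of 114 TPM. In eGFP libraries the corresponding levels were 42.1, 56.9 and 80.8 TPM. The 2 groups overlapped over most of their range, and the 2 highest libraries were the low-background eGFP-GluA2 libraries, at 90.3 and 114 TPM. Among 21918 protein-coding genes the mean level of Tac1 exceeded that of 97.4% in eGFP-GluA2 and 97.1% in eGFP. Its counts were ample, with 513 to 1500 in eGFP-GluA2 libraries and 556 to 1228 in eGFP libraries.

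The group difference in Tac1 mRNA was within the spread between libraries. Mean levels were 70.0 ± 24.3 TPM in eGFP-GluA2 and 59.4 ± 12.9 TPM in eGFP (SD, n = 7 and 9). The log2 fold change from counts was 0.20 ± 0.21 (SE; edgeR's quasi-likelihood test, Benjamini-Hochberg adjusted p = 1.00), with a 95% interval from -0.25 to 0.65. As a share of Pvalb mRNA on the TPM scale, Tac1 reached 29.9 ± 5.90% in eGFP-GluA2 and 29.9 ± 11.2% in eGFP. This share went with the background, at 23.8% in low-background and 37.6% in high-background libraries of both groups. In low-background libraries it averaged 27.1% in eGFP-GluA2 and 21.6% in eGFP, and in high-background ones 35.0% and 38.8%. The like means are therefore not read as equal shares.

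Tac2, the neurokinin B precursor, was scarce. In eGFP-GluA2 libraries its level was listed at 0 in the lowest library, with a median of 1.08 and a highest value of 2.99 TPM. In eGFP libraries the lowest, median and highest levels were 0.122, 0.622 and 3.30 TPM. The groups overlapped throughout, and the values above 2 TPM came from high-background libraries of both groups. Counts ran from 1 to 35 in eGFP-GluA2 and from 1 to 51 in eGFP, and the 5 low-background libraries had 1 to 7 each. No group difference in Tac2 beyond the spread was found: the log2 fold change was -0.32 ± 0.75 from counts (edgeR, adjusted p = 1.00), with an interval from -1.90 to 1.27, and it had the opposite sign on the TPM scale, at 0.18. With the background as a covariate it was -0.13 ± 0.27. Tac1 made up most of the tachykinin precursor mRNA, with 97.1 ± 2.55% of the summed TPM of Tac1, Tac2 and Tac4 in eGFP-GluA2 and 96.9 ± 3.04% in eGFP.

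**Figure D1:**
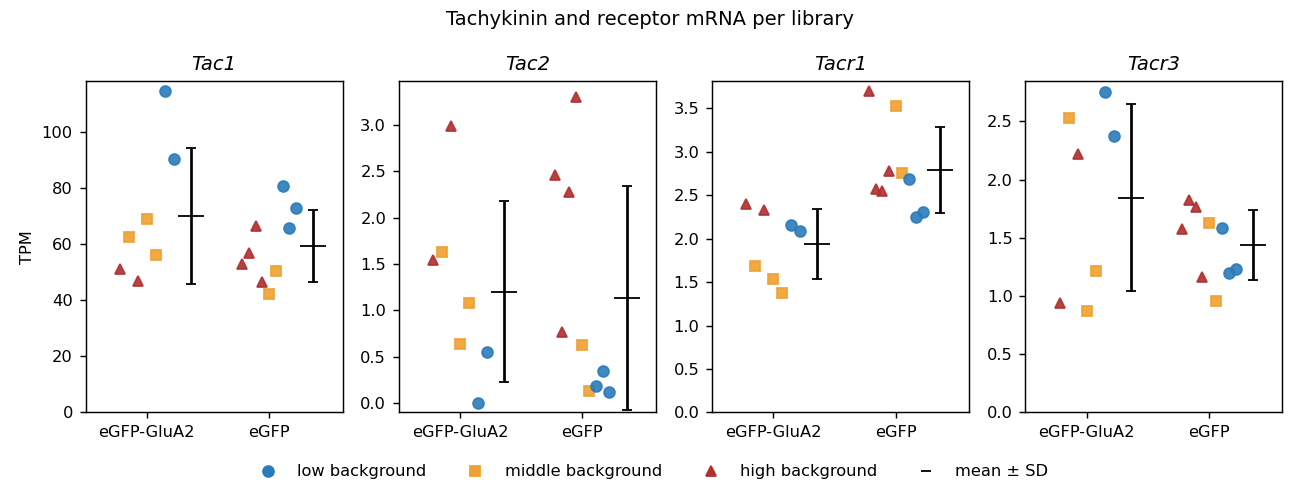
TPM of Tac1, Tac2, Tacr1 and Tacr3 in each library (1 point per library, eGFP-GluA2 left and eGFP right), with symbols for the background tier and the mean ± SD of each group beside its points. Tac1 lies between 42.1 and 114 TPM, while the other genes stay below 4 TPM. Tacr1 is the gene whose groups lie farthest apart for their spread, with means of 1.94 TPM in eGFP-GluA2 and 2.79 TPM in eGFP.

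Tacr1, the NK1 receptor gene, had lower values in most eGFP-GluA2 libraries. In eGFP-GluA2 libraries its lowest, median and highest levels were 1.38, 2.09 and 2.40 TPM, and its counts ran from 102 to 166. In eGFP libraries they were 2.25, 2.68 and 3.70 TPM, and counts ran from 178 to 306. In TPM, 5 of 7 eGFP-GluA2 libraries lay below every eGFP library, and 7 of 9 eGFP libraries lay above every eGFP-GluA2 library. In CPM scaled by TMM (a correction for library composition), 6 of 7 eGFP-GluA2 libraries lay below every eGFP library. The exception was replicate 2 of eGFP-GluA2, at 14.2 CPM, just above replicate 4 of eGFP, at 14.03 CPM. Of all genes tested, 0.0152% lay lower in CPM in every eGFP-GluA2 library than in any eGFP library, and Tacr1 was not among them. The share of all genes with 6 of 7 libraries below in CPM, or 5 of 7 in TPM, was not computed.

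Levels of Tacr1 were even among eGFP-GluA2 libraries, at 12.9 ± 1.12 CPM (SD, n = 7). Among eGFP libraries they spread more, at 19.6 ± 4.79 CPM (n = 9), mainly through the 2 middle-background libraries at 25.4 and 28.4 CPM. The log2 fold change was -0.61 ± 0.14 (SE), with a 95% interval from -0.89 to -0.32, or 0.657 of the eGFP level. This difference was known when the gene was chosen, so it is given as a description and supports nothing further. In the edgeR fit without covariates it did not pass the threshold after adjustment over all genes (adjusted p = 1.00), and its unadjusted p of 0.00036 was the 8th smallest of 26257. That fit called 1 gene, or 0.00381% of those tested, and none of the 4 tachykinin genes. The called gene was Gt(ROSA)26Sor, a noncoding gene at a locus widely used for transgenes, at a log2 fold change of 2.30 ± 0.22. Gria2, the gene of GluA2, was not called in that fit either. Its log2 fold change was 0.71 ± 0.16 and its unadjusted p the 9th smallest. The lack of a call in that fit therefore does not show that a gene is unchanged.

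The call for Tacr1 depended on the fit, while its direction did not. DESeq2 on the same counts gave a log2 fold change of -0.61 (adjusted p = 0.0195) and called 0.0336% of genes. edgeR with the 3 background tiers as a block gave -0.65 ± 0.10 (adjusted p = 0.00244) and called 0.0419%. The 5 low-background libraries alone gave -0.57 ± 0.14 (adjusted p = 0.0435), in a fit that called 0.791%. With the background as a covariate the value was -0.60 ± 0.13 and was not called (adjusted p = 0.134), in a fit that called 0.0343%. Each of these fits uses the contrast that was known when Tacr1 was picked, so the shares are printed for scale only.

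The authors' deposited table lists Tacr1 at a log2 fold change of -0.55 with a standard error of 0.116 and an adjusted p of 0.0168, and it calls 0.0187% of its genes. Its normalized counts for Tacr1 ran from 103 to 130 in eGFP-GluA2 libraries, against 138 to 267 in eGFP libraries, with no overlap. The share of all genes without overlap on that scale was not computed. Tacr1 was picked with this contrast known, so its lack of overlap is a description only. These normalized counts come from another quantification of the same libraries than the deposited counts. In the same authors' deposited table, Tac1 (0.06), Tac2 (0.03) and Tacr3 (0.12) have small log2 fold changes and an adjusted p of 1.00 each. The log2 ratios of its mean normalized counts are larger in size, at 0.10 for Tac1, 0.20 for Tac2, 0.20 for Tacr3 and -0.66 for Tacr1. The authors' log2 fold changes are therefore not a like measure to those of the fits above.

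**Figure D2:**
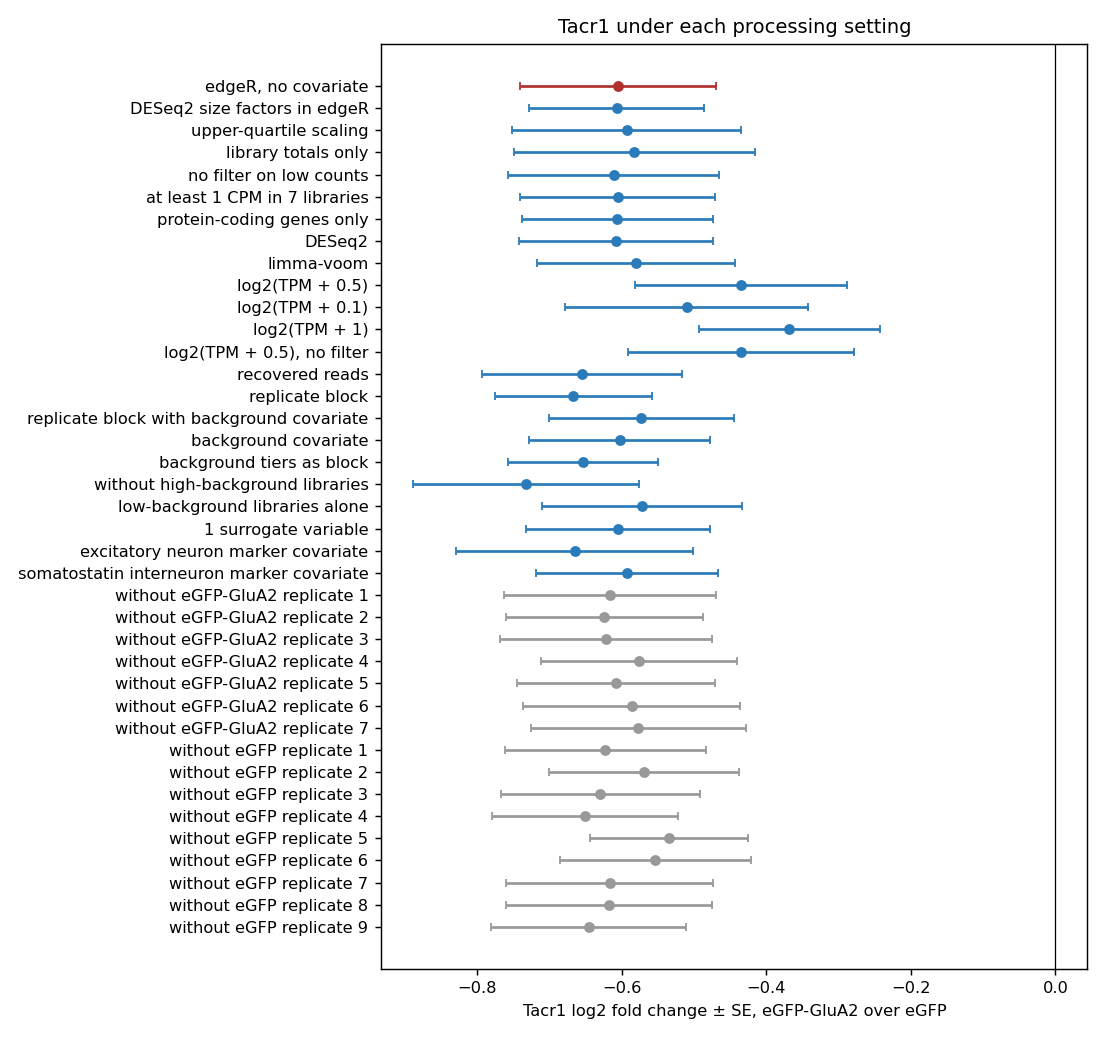
Log2 fold change of Tacr1, eGFP-GluA2 over eGFP, with its standard error under each processing setting (red, edgeR on counts without covariates; blue, other settings; grey, each library left out in turn). All points lie below 0, between -0.73 without the high-background libraries and -0.37 on the log2(TPM + 1) scale.

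Tacr3, the NK3 receptor gene, was near the Tacr1 level in eGFP-GluA2 libraries and below it in eGFP libraries. There the lowest, median and highest levels were 0.874, 2.22 and 2.75 TPM. In eGFP libraries the levels were 0.960, 1.58 and 1.82 TPM. The eGFP-GluA2 values fell on both sides of the eGFP range. In TPM, 4 of 7 libraries lay above every eGFP library and 2 of 7 below every one. In CPM it was 1 of 7 above and 1 of 7 below. The share of all genes with such a pattern was not computed. Means were 1.84 ± 0.80 TPM in eGFP-GluA2 and 1.44 ± 0.30 TPM in eGFP (SD, n = 7 and 9). Counts ran from 42 to 130 in eGFP-GluA2 and from 55 to 123 in eGFP. The log2 fold change from counts was 0.19 ± 0.21 (edgeR, adjusted p = 1.00), with an interval from -0.26 to 0.64, so no difference beyond the spread was found.

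In both groups mean levels ran in the order Tac1, Tacr1, Tacr3, Tac2 on the TPM scale. Tac1 exceeded the other 3 in every library. Tacr1 and Tacr3 overlapped in eGFP-GluA2 libraries, where Tacr1 was the higher in 4 of 7, and did not overlap in eGFP libraries, where it was the higher in 9 of 9. Tac2 overlapped both receptor genes in both groups: Tacr1 exceeded it in 6 of 7 eGFP-GluA2 libraries and 8 of 9 eGFP libraries, and Tacr3 exceeded Tac2 in 5 of 7 eGFP-GluA2 libraries and 6 of 9 eGFP libraries. Tacr1 supplied 49.2 ± 7.93% of the summed receptor TPM (Tacr1, Tacr2 and Tacr3) in eGFP-GluA2 and 62.5 ± 5.39% in eGFP. The ratio of Tacr1 to Tacr3 on the TPM scale was 1.26 ± 0.67 in eGFP-GluA2 and 2.01 ± 0.48 in eGFP. Both summaries contain the Tacr1 difference and are not separate evidence of it.

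**Figure D3:**
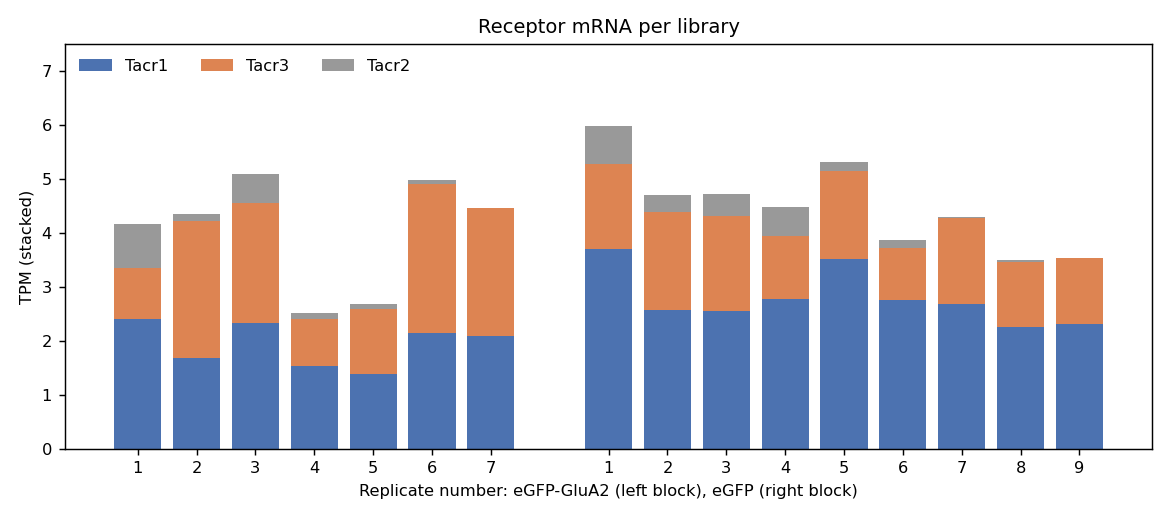
Stacked TPM of the tachykinin receptor genes in each library, with the 7 eGFP-GluA2 libraries on the left and the 9 eGFP libraries on the right. The Tacr1 part of the bars is between 1.38 and 2.40 TPM in eGFP-GluA2 and between 2.25 and 3.70 TPM in eGFP, and the Tacr3 part varies without a shared direction.

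The other members of the family were near the limit of detection. Tac4, the precursor of hemokinin-1, averaged 1.16 ± 0.59 CPM in eGFP-GluA2 and 1.66 ± 0.88 CPM in eGFP, with a log2 fold change of -0.52 ± 0.46. Tacr2, the NK2 receptor gene, averaged 1.49 ± 1.51 CPM in eGFP-GluA2 and 1.58 ± 1.34 CPM in eGFP, with a log2 fold change of -0.09 ± 0.82. Neither passed the threshold (edgeR, adjusted p = 1.00 for both).

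The 4 genes differed in how they went with the background. Tac2 averaged 3.15 CPM in the high-background libraries and 0.247 CPM in the low-background ones, a 12.8-fold difference, and Tacr2 differed 19.5-fold, beside 19.7-fold for the olfactory and vomeronasal genes themselves. Tac1 went the other way, with 57.1 CPM in high-background and 98.2 CPM in low-background libraries, as did Pvalb with 144 and 398 CPM. Tacr1 (16.1 and 15.1 CPM) and Tacr3 (7.40 and 7.93 CPM) stayed close between those tiers. The part of the background in the levels of Tac1 and Tac2 was not tested.

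Within the background tiers, Tacr1 was lower in eGFP-GluA2 in each comparison of the 2 groups. In low-background libraries its levels were 11.2 and 11.7 CPM in eGFP-GluA2, against 15.4, 18.6 and 18.6 CPM in eGFP. In the middle tier they were 12.3, 13.8 and 14.2 CPM in eGFP-GluA2, against 25.4 and 28.4 CPM in eGFP. In the high tier they were 13.2 and 13.6 CPM in eGFP-GluA2, against 14.03 to 22.1 CPM in the 4 eGFP libraries. The groups did not overlap in any tier, though the gap in the high tier was small. Of all genes tested, 58, or 0.221%, showed the same pattern of lower values without overlap in every tier.

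The mean log2 CPM of Tacr1 differed by -0.60 in the low, -0.99 in the middle and -0.36 in the high tier, eGFP-GluA2 minus eGFP. No other tachykinin gene kept 1 sign over the tiers. The share of all genes that keep 1 sign was not computed, and Tacr1 was picked with the contrast known, so this is a description only. For Tac1 the differences were 0.09, 0.51 and -0.24, for Tac2 -0.35, 0.54 and -0.34, and for Tacr3 0.47, 0.08 and -0.22. Tacr3 levels in the low tier were 9.19 and 9.85 CPM in eGFP-GluA2, against 6.34 to 7.68 CPM in eGFP, without overlap, and the groups overlapped in the other tiers. Tac1 levels did not overlap in the middle tier, at 88.5 to 113 CPM in eGFP-GluA2 against 64.3 and 72.5 CPM in eGFP. In TPM they did not overlap in the low tier either. With so few libraries per tier, and no share over all genes computed for 1 tier, neither is read as a result.

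**Figure D4:**
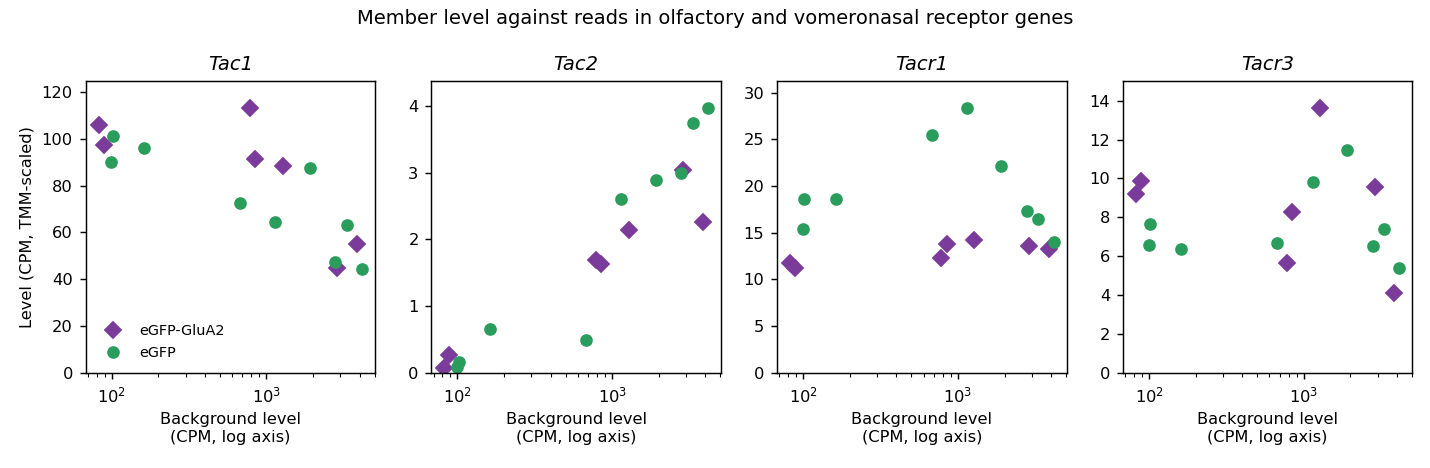
Level of each gene (CPM, TMM-scaled, linear axis from 0) against the background level of its library (CPM, log axis), with eGFP-GluA2 as diamonds and eGFP as circles. The highest Tac2 and the lowest Tac1 values lie at high background, where Tac1 spans 44.5 to 87.6 CPM. The Tacr1 diamonds stay between 11.2 and 14.2 CPM across the whole range and lie below the circles of similar background.

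Genes of tachykinin production and signalling were read from the same fit. Of 67 listed genes tested, none passed the threshold in either direction, against 0.00381% of all genes. The median log2 fold change over all genes tested was -0.02. The 8 genes of precursor processing had a median of 0.06 and included Pcsk1 (0.25 ± 0.13), a convertase that cuts precursors, and Furin (0.16 ± 0.15), a convertase of the trans-Golgi. Pam, the amidating enzyme that tachykinins need, had 452 ± 133 CPM in eGFP-GluA2 and 453 ± 137 CPM in eGFP. The 6 tachykinin-degrading peptidases had a median of 0.02, with Ace (0.17 ± 0.11), the angiotensin-converting enzyme, and Dpp4 (-0.39 ± 0.34), a dipeptidyl peptidase of the cell surface, as the 2 of smallest p.

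The 12 genes of dense-core vesicles had a median log2 fold change of 0.09. They held the only 1 of 67 listed genes with an unadjusted p under 0.05 in edgeR: Cadps2, a priming factor for dense-core vesicles. Over all genes that share was 1.12%, so 1 in 67 is not read as a result about the lists. Cadps2 averaged 13.8 ± 2.54 CPM in eGFP-GluA2 and 9.19 ± 3.13 CPM in eGFP, with a log2 fold change of 0.58 ± 0.20 (edgeR, unadjusted p = 0.0099, adjusted p = 1.00). With the background tiers as a block in edgeR, Cadps2 passed at 0.67 ± 0.13 (adjusted p = 0.0487), as 1 of 67 listed genes. That fit called 0.0419% of all genes. In the low-background libraries alone Cadps2 passed at 1.00 ± 0.18 (adjusted p = 0.00412) and Furin at 0.37 ± 0.08 (adjusted p = 0.0238). They were 2 of 62 listed genes tested, in a fit that called 0.791% of all genes. The lists were chosen with earlier results known, so these calls are a description only. Cadps2 was not called with the replicate block, at 0.40 ± 0.18 (adjusted p = 0.515), or without the high-background libraries, at 0.94 ± 0.16 (adjusted p = 0.176). With the excitatory neuron marker covariate Cadps2 stood at 0.18 ± 0.14 (adjusted p = 0.323). That covariate moved the median log2 fold change over all genes tested to -0.11, so its fit is no check on single genes. Vgf, a granin-like secretory protein, stood at 0.36 ± 0.21.

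Downstream of the receptors, the 17 genes of Gq signalling and receptor desensitisation had a median log2 fold change of 0.05. Grk5, a receptor kinase, stood at -0.10 ± 0.10. The 10 channel genes that tachykinin receptors are known to act on had a median of -0.01, and Kcnj6, an inward rectifier, stood at -0.08 ± 0.15. Nalcn, the sodium leak channel that substance P opens in mouse neurons, averaged 184 ± 45.0 CPM in eGFP-GluA2 and 191 ± 50.4 CPM in eGFP. Among the 12 other interneuron neuropeptide genes tested, the median was 0.03, with Npy, neuropeptide Y, at 0.45 ± 0.27 and Nmb, neuromedin B, at 0.38 ± 0.25.

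**Figure D5:**
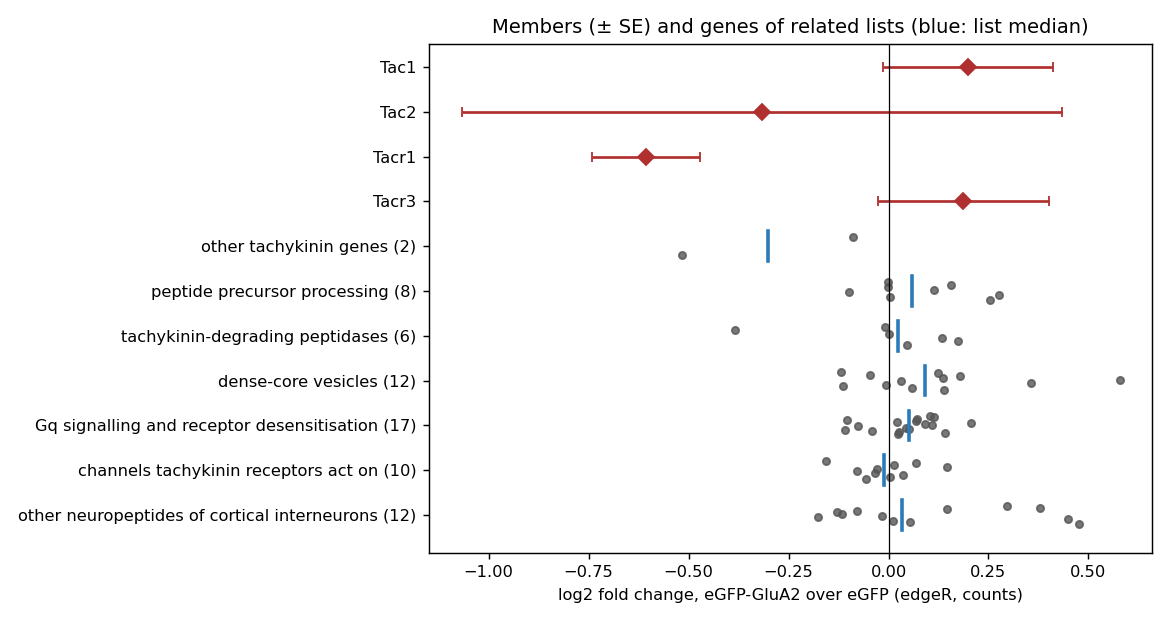
Log2 fold change, eGFP-GluA2 over eGFP, from edgeR on counts without covariates: the 4 tachykinin genes with their standard errors (red), and single genes of the related lists (grey, number tested in parentheses) with the list median (blue). List medians lie between -0.30 and 0.09, and Tacr1, at -0.61, lies below every listed gene.

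Markers of somatostatin interneurons, the class that holds the cells known to be rich in Tacr1, were read beside it. Sst averaged 16.2 ± 9.02 CPM in eGFP-GluA2 and 11.6 ± 5.95 CPM in eGFP, and Nos1 averaged 26.9 ± 3.77 CPM in eGFP-GluA2 and 27.1 ± 6.73 CPM in eGFP. The most abundant of these markers were Calb1, at 57.6 CPM in eGFP-GluA2 and 58.0 CPM in eGFP, and Moxd1, at 55.3 CPM in eGFP-GluA2 and 57.6 CPM in eGFP. For Chodl the deposited tables disagreed: the counts were 0 to 33 in eGFP-GluA2 and 1 to 49 in eGFP, while the TPM table listed 17.6 to 49.3 TPM in eGFP-GluA2 and 13.8 to 48.8 TPM in eGFP. The level of Chodl is therefore uncertain. The summed level of the 9 somatostatin interneuron markers was 151 to 342 CPM in eGFP-GluA2 and 157 to 285 CPM in eGFP, and 0 of 9 passed the threshold. With their mean log2 level as a covariate, the log2 fold change of Tacr1 was -0.59 ± 0.13, against -0.61 without it. That covariate weighs all 9 genes alike, Chodl among them, so it cannot single out the cells rich in Tacr1. The part of those cells in the Tacr1 level was not tested.

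Among 12 excitatory neuron markers, 10 had a log2 fold change above 0 and none passed the threshold. Slc17a7, the vesicular glutamate transporter, averaged 45.6 ± 14.8 CPM in eGFP-GluA2 and 30.5 ± 8.84 CPM in eGFP, with a log2 fold change of 0.58 ± 0.22 (edgeR, adjusted p = 1.00). The summed level of that list was 357 to 579 CPM in eGFP-GluA2 and 302 to 573 CPM in eGFP. Its most abundant genes were Cux2, at 195 CPM in eGFP-GluA2 and 188 CPM in eGFP, and Camk2a, at 191 CPM in eGFP-GluA2 and 168 CPM in eGFP. With its mean log2 level as a covariate, the log2 fold change of Tacr1 was -0.67 ± 0.16. In that edgeR fit, 11111 of 26257 genes had an unadjusted p under 0.05, against 293 without the covariate. The median log2 fold change over all genes tested was -0.11, against -0.02, so that fit is no check on single genes. Drd1, which marks striatal projection neurons rich in Tac1, had 39.1 ± 10.3 CPM in eGFP-GluA2 and 40.5 ± 11.8 CPM in eGFP. The summed level of 10 striatal markers, led by Pde10a and Gng7, was 221 to 336 CPM in eGFP-GluA2 and 226 to 319 CPM in eGFP, and its part in the Tac1 level was not tested. The 7 VIP interneuron markers, led by Prox1 and Crispld2, went with the background as Tac2 did, at a mean summed level of 4.83 CPM in the low, 19.1 CPM in the middle and 32.0 CPM in the high tier. Their summed level spanned 3.89 to 36.6 CPM in eGFP-GluA2 and 3.05 to 36.5 CPM in eGFP, and their part in the Tac2 level was not tested. Some other lists had the same order: from the low to the high tier, oligodendrocyte precursor markers averaged 8.85 and 39.8 CPM, endothelial markers 13.4 and 42.2 CPM, and mural cell markers 9.72 and 28.4 CPM. Further lists went the other way. From the low to the high tier, PV interneuron markers averaged 9924 and 4477 CPM and LAMP5 interneuron markers 461 and 284 CPM. Astrocyte markers averaged 286 and 148 CPM, and excitatory neuron markers 504 and 370 CPM.

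Genes next to Tacr1 were read from the same fit, because Tacr1 lies on chromosome 6, 30.5 Mb from Gt(ROSA)26Sor. Within 1 Mb of Tacr1, 41 genes were tested and 0 passed, against 0.00381% of all genes, with a median log2 fold change of -0.02. The protein-coding neighbours on either side, Eva1a (-0.46 ± 0.38) and Pole4 (-0.12 ± 0.21), were within their error of 0 or little beyond it. Near Tac1, Tac2 and Tacr3, 22, 94 and 22 genes were tested and 0 passed. In a fit that called 1 gene in all, a count of 0 among neighbours says little. A part of the Gt(ROSA)26Sor locus in the Tacr1 level was not tested.

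Genes that varied most like each member were sought among 12213 abundant protein-coding genes (12214 for Tac2), by Pearson's r of log2 CPM over 16 libraries after a linear fit on group and background. For Tac1 they were Fam149a (r = 0.928), Hpcal4, a neuronal calcium sensor, Unc50, Tmem56 and Nr3c1, the glucocorticoid receptor. For Tacr1 they were Hdac6 (r = 0.923), a cytosolic deacetylase, Dgcr6, Lmf2, Kcnd1, a potassium channel, and Spout1. For Tacr3 they were Tmed1 (r = 0.824), Incenp, Lig1, Cdyl2 and 6330403K07Rik, and for Tac2 Col6a6 (r = 0.809), Sp110, Golm1, Zfp9 and Rsbn1. The libraries share depth and composition, and the lists rested on the adjustment: without it, the 5 closest genes kept 1 of 5 for Tac1, 2 for Tac2, 0 for Tacr1 and 3 for Tacr3.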

How the data were processed

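The members and all gene lists were chosen with earlier results of these data known. The submitters' design text names bcbio-nextgen 1.2.3 for read processing, STAR for alignment to GRCm38, Sailfish for quantification and DESeq2 for testing. The deposited counts are whole, not normalized numbers of reads per gene, and the sources used here do not name their counter. The TPM values were deposited by the authors as a separate table, scaled for transcript length. A further table deposited by the authors holds a signal (reads per gene over each library's size factor) with log2 fold changes, a test score and p-values. Its values were whole multiples of 1 read in 100% of cases (tolerance 0.001), and the recovered reads (10477517 to 17382059 per library) were tested as an alternative.

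GENCODE M21 (GRCm38) gave symbols for 54409 identifiers and none for 123. The main test was edgeR 4.0.16 on deposited counts (TMM, filterByExpr, robust quasi-likelihood F test, Benjamini-Hochberg, threshold 0.05), with 16 libraries and no covariate. The filter kept 99.2% of counts. CPM are TMM-scaled, log2 CPM use a prior count of 2, and intervals are 95%. Background is the CPM, by library totals, summed over 1448 autosomal receptor genes of the olfactory and vomeronasal families. Adjusted p-values judge a group difference against the spread between libraries that the labels call biological replicates. In the fit without covariates that spread includes their differences in background.

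Alternatives were other scalings and filters, DESeq2 1.42.0, limma-voom and limma 3.58.1 on log2(TPM + 0.5), recovered reads, a replicate block, background terms, 1 surrogate variable (sva 3.50.0), marker covariates and leaving out each library. The code was tested on simulated data. Named genes were the 4 members, Tac4 and Tacr2, list members past the threshold or else the 2 of smallest p, the 5 genes most like each member among protein-coding genes of at least 4 CPM, companion markers and the 2 most abundant of each marker list discussed. Gria2, Gt(ROSA)26Sor, Pam, Nalcn, Eva1a and Pole4 were added after their values were seen. A few genes picked in this way are not reported here. R 4.3.3 and Python 3.11.15 were used.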

Additional observations from a re-analysis of the deposited data

How the results depend on the processing

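The number of genes past the threshold was 1 in the fit without covariates and moved with most settings. It was 0 with protein-coding genes only, and 2 with upper-quartile scaling, library totals only and each TPM setting. It was 3 with recovered reads or without the high-background libraries, 4 with the excitatory marker covariate and 6 with a replicate block and background covariate together. It was 8 with the replicate block, 9 with DESeq2, the background covariate or 1 surrogate variable, 11 with background tiers, and 154 in low-background libraries alone. Leaving out each library gave 1 to 1. Listed pathway genes past it numbered 1 of 67 with background tiers and 2 of 62 in low-background libraries alone, against 0.0419% and 0.791% of all genes. They numbered 0 otherwise.

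Tacr1 passed under DESeq2 (-0.61), background tiers (-0.65) and low-background libraries alone (-0.57), with the values given above. It did not pass under the other 19 settings, and its adjusted p over all 22 settings ran from 0.00244 to 1.00. Leaving out each library gave -0.65 to -0.53 (adjusted p 0.608 to 1.00). Tac2 had the opposite sign with log2(TPM + 0.5), filtered (0.18) or not (0.18), log2(TPM + 0.1) (0.25) and log2(TPM + 1) (0.11). Tacr3 did so with the replicate block and background covariate (-0.028), where Tac1 came to 0.0010. Leaving out each library gave 0.12 to 0.31 for Tac1, -0.56 to -0.09 for Tac2 and 0.03 to 0.31 for Tacr3, with no call. With the excitatory covariate, Tac1 moved to 0.51 (adjusted p = 0.0960) and Tac2 to -1.74 (adjusted p = 0.0889), and neither was called. That covariate shifted values over all genes: 11111 of 26257 had an unadjusted p under 0.05 in edgeR, against 293 without it. The cause was not tested.

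Deviations of same-numbered libraries correlated at 0.19 to 0.90 in 6 of 7 pairs and at -0.03 in 1, and 2 of 7 correlated best with their own number, so the numbers were not taken to pair the libraries. With the replicate block Tacr1 stood at -0.67 (adjusted p = 0.107) and Tac2 at -0.70 (adjusted p = 0.515). Tac2 could not be fitted in recovered reads, without the high-background libraries or in the low-background ones alone, since it fell below the filter. Counts were low for Tac2, Tac4 and Tacr2, which limits them.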
